A study of Mus musculus with 8 samples.

Results

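A group of 18 genes was near silent in every wild-type (wt) library of the series and was transcribed in both forebrain libraries of EED-cKO embryos. The genes were chosen from the measured values, in RPKM, a read number scaled to gene length and to the mapped reads of the library. A gene had to lie at or below 0.5 RPKM in all 6 wt libraries and at or above 2 RPKM in both EED-cKO libraries. Homeobox, GATA, T-box, forkhead, Wnt, Fgf, Cdkn, channel and related name families, and predicted or clone names, were left out by their symbols. Of 36317 distinct gene symbols, 6397 lay at the wt limit outside those families, and the 18 genes were 0.281% of these. The 18 were Spag6, BC089491, Slc2a9, Ddo, Eps8l2, Tctex1d1, Tcf24, Ifnlr1, Rnf39, Itih3, Nccrp1, Prrg4, Rspo4, Hsf4, Fam47e, Npw, Ppm1n and Tcf21. Because these values made the choice, the difference between EED-cKO and wt is given for them as a description, with no test.

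Bulk RNA-seq was carried out on dissected mouse embryonic tissue in 4 groups of 2 libraries. The groups were EED-cKO forebrain at embryonic day (E) 15.5, in which a Sox1-dependent Cre directs the knockout of Eed, wt forebrain at E15.5, wt forebrain at E13.5 and wt spinal cord at E13.5. Sox1 is a gene of neural progenitors, so such a Cre is aimed mainly at the neural lineage. Its activity in other cells was not measured here. The labels give genotype only as wt or EED-cKO and do not say whether the libraries of a group came from separate embryos, so each p-value covers only the spread between the libraries at hand, which may be technical.

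EED is the subunit of Polycomb repressive complex 2 (PRC2) that binds trimethylated lysine 27 of histone H3 and stimulates the methyltransferase EZH2, which places that mark. In the embryo the mark covers many genes that a given lineage does not use, above all regulators of other lineages with CpG-rich promoters. Loss of the mark can leave such genes open to whatever activators a cell holds.

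Transcripts of Eed were at 10 and 10.6 RPKM in EED-cKO forebrain, against 25.8 and 27.9 RPKM in wt E15.5 forebrain, 31.2 and 34 RPKM in wt E13.5 forebrain, and a mean of 18.1 ± 1.48 RPKM (SD, n = 2) in wt spinal cord. Eed was lower in the knockout than in wt E15.5 forebrain (log2 change −1.30 ± 0.085 SE, limma adjusted p = 8.65e-05), although a value over the whole gene need not lie in the deleted part. Ezh2 was at 30.2 and 29.6 RPKM in EED-cKO and 64.0 and 68.5 RPKM in wt E15.5 forebrain (log2 change −1.12 ± 0.0687, limma adjusted p = 7.32e-05). Suz12, which encodes another PRC2 subunit, changed by −0.27 ± 0.0785 (limma adjusted p = 0.0254). Its call was lost with only the 4 E15.5 libraries. Across 17022 tested genes, limma called 30.2% higher and 16.7% lower in EED-cKO than in wt E15.5 forebrain. Summed RPKM came to between 761647 and 843296 in the 4 E15.5 libraries and between 378294 and 397320 in the 4 E13.5 libraries. No read counts were used, so sequencing depth is unknown.

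The promoters of a few of the genes show how different their start regions are. RefSeq promoter entries (GRCm38.p6) were found for 13 of the 18 genes, and the 250 bases before the annotated start were searched for the dinucleotide CG, which reads the same on both strands. All 13 held at least 1 CG, as did 92.1% of all RefSeq promoter entries. The 3 shown are the ones that touch no GENCODE exon and lie upstream of their gene. They run 5′ to 3′ on the strand of the gene, with each CG in capitals. They come from chr2:151842677-151842926 (plus strand) for Rspo4, chr5:92554798-92555047 (plus strand) for Fam47e and chr10:40629761-40630010 (plus strand) for Ddo.
Rspo4: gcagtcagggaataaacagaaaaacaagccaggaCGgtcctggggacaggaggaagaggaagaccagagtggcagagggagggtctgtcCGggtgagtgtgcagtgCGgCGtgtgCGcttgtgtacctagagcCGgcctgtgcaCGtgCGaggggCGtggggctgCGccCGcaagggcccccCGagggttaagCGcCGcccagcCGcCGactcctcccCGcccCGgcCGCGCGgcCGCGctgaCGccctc
Fam47e: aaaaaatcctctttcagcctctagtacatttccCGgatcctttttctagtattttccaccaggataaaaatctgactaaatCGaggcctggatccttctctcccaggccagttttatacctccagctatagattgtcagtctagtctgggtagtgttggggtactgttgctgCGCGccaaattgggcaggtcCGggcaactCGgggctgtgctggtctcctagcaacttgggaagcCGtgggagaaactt
Ddo: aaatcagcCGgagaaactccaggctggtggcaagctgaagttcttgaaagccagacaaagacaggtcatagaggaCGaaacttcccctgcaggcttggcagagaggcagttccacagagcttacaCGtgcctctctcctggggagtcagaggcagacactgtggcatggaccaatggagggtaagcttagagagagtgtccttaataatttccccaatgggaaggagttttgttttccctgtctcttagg

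The Rspo4 stretch held 24 CG at a GC content of 69.6%, the Fam47e stretch 7 at 49.2%, and the Ddo stretch 3 at 51.2%. Among the 13 genes, Rnf39 had 18 CG, Spag6 16, Eps8l2 14, Ifnlr1 14, Prrg4 9, Tctex1d1 7, Tcf21 5, Itih3 3, Ppm1n 3 and Slc2a9 1. The last lies inside the longer Slc2a9 gene drawn by GENCODE. CpG-rich stretches, defined by an observed to expected CG ratio of at least 0.6 and a GC content of at least 50%, numbered 4 of 13 (Rspo4, Rnf39, Spag6 and Ifnlr1), beside 31.0% of all RefSeq entries. With a ratio of at least 0.75 and a GC content of at least 55%, 2 remained (Rspo4 and Rnf39). The 31.0% counts entries and not genes. Counted by gene, with the entry holding the most CG kept, CpG-rich shares were 62.2% of tested genes and 3.56% of genes silent in both wt and EED-cKO. With the first entry of each gene kept, these shares were 58.5% and 3.41%. Only 72.2% of the 18 genes and 71.8% of tested genes had an entry, so a comparison of the group with other genes is void.

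The levels reached in EED-cKO forebrain were low. The mean of the 2 EED-cKO libraries ran between 2.05 RPKM (Tcf21) and 4.5 RPKM (Spag6), with a median of 2.62 RPKM. These levels exceeded those of only 15.9% to 28.1% of the tested genes in the same libraries. In wt E15.5 forebrain the group means ran between 0 and 0.5 RPKM with a median of 0.3 RPKM. For the 16 genes above 0 in both wt E15.5 libraries, the EED-cKO mean was 4.89 to 14.2 times the wt mean, with a median of 8.05. On the log2(RPKM + 1) scale the change ran between 1.14 and 2.46 with a median of 1.56, beside a median of 0.08 over all tested genes. That scale understates the change of low genes, and the median was 2.81 with a pseudocount of 0.1. In bulk tissue, more cells of a type and more RNA per cell cannot be told apart.

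**Figure D1:**
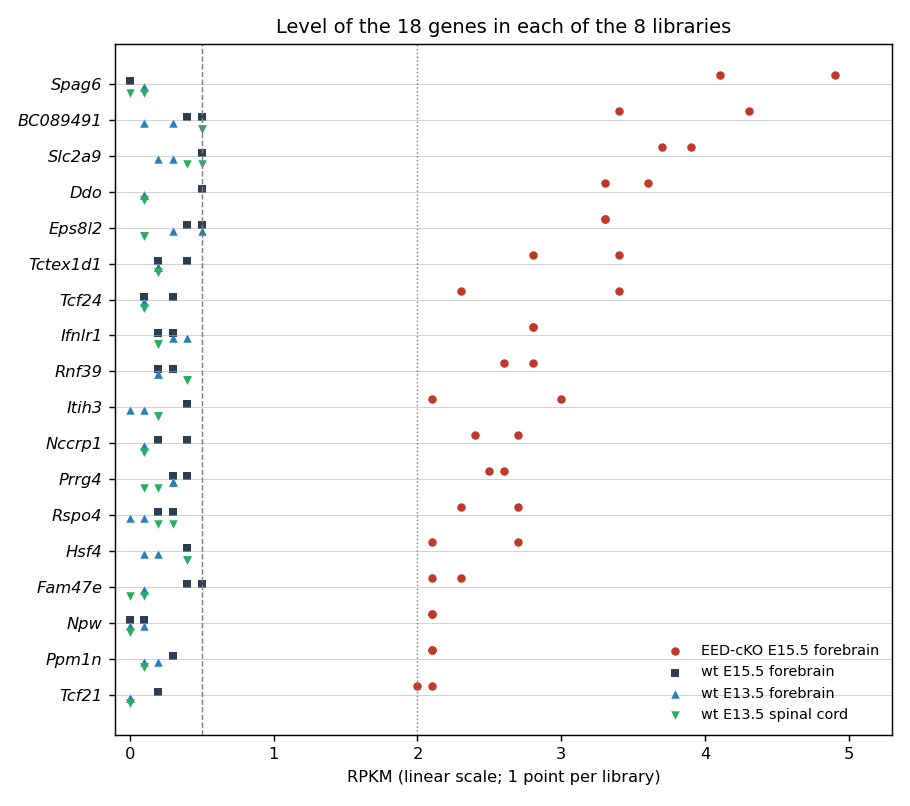
RPKM of the 18 genes in each of the 8 libraries on a linear axis, 1 point per library, with EED-cKO libraries as red circles and the 3 wt groups in other colours. The dashed line marks 0.5 RPKM and the dotted line 2 RPKM, the limits that chose the genes, and the EED-cKO points of Spag6 lie farthest to the right at 4.9 and 4.1 RPKM.

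Of the group, 3 genes encode transcription factors. Tcf21 is a basic helix-loop-helix (bHLH) factor of mesenchyme in the heart, lung and kidney. It was at 2.0 and 2.1 RPKM in EED-cKO forebrain, against 0.2 and 0.2 RPKM in wt E15.5 forebrain and 0 RPKM in all 4 E13.5 libraries, the lowest E13.5 values of the group. Tcf24, another bHLH factor, was at 3.4 and 2.3 RPKM in EED-cKO, against 0.3 and 0.1 RPKM in wt E15.5 forebrain and 0.1 RPKM in all 4 E13.5 libraries. Hsf4 is the heat shock factor of the lens. It stood at 2.7 and 2.1 RPKM in EED-cKO, against 0.4 and 0.4 RPKM in wt E15.5 forebrain, 0.1 and 0.2 RPKM in E13.5 forebrain, and 0.4 and 0.4 RPKM in spinal cord. The common partners of tissue-restricted bHLH factors are encoded by Tcf3, Tcf4 and Tcf12. Tcf3 was at 48.7 and 47.0 RPKM in EED-cKO and 63.1 and 68.3 RPKM in wt E15.5 forebrain, and Tcf4 at 10.7 and 11.9 RPKM in EED-cKO and 27.1 and 19.6 RPKM in wt. Tcf12 was at 56.9 and 60.1 RPKM in EED-cKO and 56.2 and 47.8 RPKM in wt E15.5 forebrain. Thus Tcf3 and Tcf4 had lower values in EED-cKO and Tcf12 higher ones. Close relatives of Tcf21 took different levels. Tcf15 had 1.9 and 2.3 RPKM and Msc 1.8 and 2.5 RPKM in EED-cKO, while Tcf23 had 0 and 0.1 RPKM. In wt E15.5 forebrain, Tcf15 and Msc each had 1.0 and 0.7 RPKM, and Tcf23 was listed at 0. Of the other heat shock factors, Hsf1 was at 30.4 and 30.1 RPKM in EED-cKO and 30.4 and 28.6 RPKM in wt E15.5 forebrain, and Hsf2 at 29.6 and 27.7 RPKM in EED-cKO and 37.4 and 41.1 RPKM in wt. Hsf5 was at 0.1 RPKM in all 8 libraries.

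Of 27 other tested bHLH factors, 11 rose and 8 fell in EED-cKO forebrain (40.7% higher, beside 30.2% over all tested genes, with a median log2 change of 0.23). Tested genes had to reach 1 RPKM in 2 or more libraries. Bhlha9 and Sim2, both called higher, passed that filter only through their EED-cKO values, so it favoured a higher call for them. Olig3, a progenitor factor of the dorsal spinal cord and hindbrain, rose by 4.01 ± 0.119 (SE, limma adjusted p = 4.17e-06). Neurod6 and Neurod2, factors of cortical excitatory neurons, fell by 4.67 ± 0.138 (limma adjusted p = 4.17e-06) and 3.50 ± 0.128 (9.24e-06). These last calls belong to the restored row order of the E15.5 columns. With hyphens kept in the sorting, Neurod6 changed by −0.03 and Neurod2 by 0.53, and 3 factors were lower.

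The genes for secreted proteins were Rspo4, Npw and Itih3. Rspo4 belongs to the R-spondins, which enhance Wnt signalling by binding LGR receptors and removing the ubiquitin ligases ZNRF3 and RNF43 from the cell surface, and it is known for its part in nail formation. It was at 2.3 and 2.7 RPKM in EED-cKO, against 0.3 and 0.2 RPKM in wt E15.5 forebrain, 0 and 0.1 RPKM in E13.5 forebrain, and 0.3 and 0.2 RPKM in spinal cord. The other R-spondins were transcribed in wt forebrain. Rspo1 was at 4.3 and 4.4 RPKM in EED-cKO and 2.4 and 1.7 RPKM in wt E15.5. Rspo2 had 5.6 and 5.3 RPKM in EED-cKO and 5.1 and 4.6 RPKM in wt, and Rspo3 had 10.5 and 10.8 RPKM in EED-cKO and 11.7 and 14.2 RPKM in wt. On the RPKM scale Rspo4 thus had the lowest level of the family at E15.5 in either genotype. The receptor gene Lgr4 was at 12.4 and 13.9 RPKM in EED-cKO and 6.4 and 4.8 RPKM in wt E15.5 forebrain. Rnf43 was at 1.8 and 1.9 RPKM in EED-cKO and 0.5 and 0.6 RPKM in wt E15.5 forebrain.

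Npw encodes neuropeptide W, a ligand of the receptors NPBWR1 and, in humans, NPBWR2. It was at 2.1 and 2.1 RPKM in EED-cKO, against 0.1 and 0 RPKM in wt E15.5 forebrain, 0 and 0.1 RPKM in E13.5 forebrain and 0 RPKM in both spinal cord libraries. Its relative Npb was at 0.7 and 0.9 RPKM in EED-cKO and 0.4 and 0.2 RPKM in wt E15.5 forebrain, and the receptor gene Npbwr1 at 0.4 and 0.8 RPKM in EED-cKO and 0.4 and 0.3 RPKM in wt. The ligand was thus above 2 RPKM in libraries in which its receptor gene was below 1 RPKM. Itih3 encodes a heavy chain of the inter-alpha-trypsin inhibitor family, which is linked to hyaluronan in the extracellular matrix. It was at 3.0 and 2.1 RPKM in EED-cKO, against 0.4 and 0.4 RPKM in wt E15.5 forebrain, 0.1 and 0 RPKM in E13.5 forebrain, and 0.2 and 0.2 RPKM in spinal cord. Within the family, Itih5 was at 15.8 and 18.9 RPKM in EED-cKO and 5.0 and 3.3 RPKM in wt E15.5 forebrain, and Itih2 at 9.8 and 7.8 RPKM in EED-cKO and 3.1 and 2.7 RPKM in wt. Itih1, Itih4 and Ambp, which encodes the light chain bikunin, were listed at 0 in all 8 libraries.

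Of 40 other tested neuropeptide and peptide hormone genes, 13 rose and 13 fell. The 32.5% higher were near the 30.2% over all tested genes, and the median log2 change was 0.23. Nmu, Ins2, Sct and Insl3, called higher, passed the filter for tested genes only through their EED-cKO values. Cort, Tac2, Crh, Hcrt and Gcg, called lower, passed it only through their wt E15.5 values. The filter thus favoured the call that each of these genes received. Cartpt rose by 1.87 ± 0.193 (limma adjusted p = 0.000429), and Tac2 fell by 1.99 ± 0.233 (0.000707). Nts fell by 1.84 ± 0.108 in the restored order (limma adjusted p = 6.5e-05) and changed by 0.0 with hyphens kept. Of 32 other tested developmental ligands and antagonists, 17 rose and 5 fell (53.1% higher, beside 30.2% over all tested genes, median 0.44), and 11 rose after quantile normalization. Gdf10 and Bmp7, both of the bone morphogenetic protein family, rose by 1.61 ± 0.166 (limma adjusted p = 0.000429) and 1.35 ± 0.118 (0.00024), while Inhba, an activin subunit, fell by 1.45 ± 0.169 (0.000681). Gdf10 lost its call in the deposited row order (log2 change 0.51). Among the developmental ligands and antagonists, Gdf15, called higher, passed the filter only through its EED-cKO values, and Inhba only through its wt E15.5 values. With either EED-cKO library left out, 3 of this list fell.

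Membrane proteins were encoded by Slc2a9, Ifnlr1 and Prrg4. Slc2a9 encodes a urate transporter of kidney and liver. It was at 3.7 and 3.9 RPKM in EED-cKO, against 0.5 and 0.5 RPKM in wt E15.5 forebrain, 0.2 and 0.3 RPKM in E13.5 forebrain, and 0.4 and 0.5 RPKM in spinal cord, so that it lay at the upper edge of what was taken as silent. Slc2a12, a related sugar transporter gene, was at 9.8 and 9.1 RPKM in EED-cKO and 4.2 and 3.6 RPKM in wt E15.5 forebrain. Slc22a12, the other urate transporter gene examined, stayed at 0.4 and 0.3 RPKM in EED-cKO and 0.2 and 0.2 RPKM in wt. Xdh and Uox, which make and degrade urate in the mouse, did not exceed 0.1 RPKM in any library.

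Ifnlr1 encodes the specific chain of the interferon lambda receptor, found mainly on epithelial cells, and Il10rb encodes the chain it pairs with. Ifnlr1 was at 2.8 and 2.8 RPKM in EED-cKO, against 0.3 and 0.2 RPKM in wt E15.5 forebrain, 0.3 and 0.4 RPKM in E13.5 forebrain, and 0.2 and 0.2 RPKM in spinal cord. Il10rb was at 10.4 and 10.6 RPKM in EED-cKO and 5.9 and 6.1 RPKM in wt E15.5 forebrain. The type I interferon receptor gene Ifnar1 was at 31.2 and 31.2 RPKM in EED-cKO and 34.3 and 32.9 RPKM in wt E15.5, with lower values in the mutant. Prrg4 encodes a transmembrane protein with a vitamin K-dependent Gla domain. It was at 2.6 and 2.5 RPKM in EED-cKO, against 0.4 and 0.3 RPKM in wt E15.5 forebrain, 0.3 and 0.3 RPKM in E13.5 forebrain, and 0.1 and 0.2 RPKM in spinal cord. Its relatives were transcribed in wt forebrain, with Prrg3 at 14.0 and 15.1 RPKM in EED-cKO and 9.9 and 7.4 RPKM in wt E15.5, and Prrg2 at 7.3 and 6.2 RPKM in EED-cKO and 7.3 and 7.7 RPKM in wt.

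Spag6 and Tctex1d1 encode proteins of motile cilia and dynein complexes. Spag6 belongs to the central apparatus of the axoneme and had the highest level of the group, at 4.9 and 4.1 RPKM in EED-cKO, against 0 RPKM in both wt E15.5 libraries, 0.1 and 0.1 RPKM in E13.5 forebrain, and 0 and 0.1 RPKM in spinal cord. Its close copy Spag6l was at 11.9 and 12.2 RPKM in EED-cKO and 6.2 and 5.1 RPKM in wt E15.5 forebrain. How reads were shared between these similar genes is not given in the sources used here, so the split of reads between them is uncertain. Other cilia genes were present in wt forebrain. Foxj1, the factor that directs motile cilia formation, was at 40.7 and 38.8 RPKM in EED-cKO and 14.9 and 15.4 RPKM in wt E15.5. Spag16 was at 3.1 and 2.6 RPKM in EED-cKO and 1.1 and 0.8 RPKM in wt E15.5 forebrain. Hydin and Spag17, also of the central apparatus, stayed at or below 0.4 RPKM in all libraries.

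Tctex1d1, of the Tctex1 dynein light chain family, was at 2.8 and 3.4 RPKM in EED-cKO, against 0.2 and 0.4 RPKM in wt E15.5 forebrain and 0.2 RPKM in all 4 E13.5 libraries. Tctex1d2, which belongs to the same family, had 24 and 19.2 RPKM in EED-cKO, against 17.6 and 20.6 RPKM in wt E15.5 forebrain, so it was not silent in either.

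The enzymes and adaptors were Ddo, Ppm1n, Eps8l2, Nccrp1 and Rnf39. Ddo encodes the peroxisomal D-aspartate oxidase, which keeps D-aspartate low in the adult brain. It was at 3.6 and 3.3 RPKM in EED-cKO, against 0.5 and 0.5 RPKM in wt E15.5 forebrain and 0.1 RPKM in all 4 E13.5 libraries. Dao, the oxidase of other D-amino acids, stayed at 0 RPKM in EED-cKO and at 0 and 0.2 RPKM in wt E15.5. Eps8l2 encodes an actin regulator of hair cell stereocilia. It was at 3.3 and 3.3 RPKM in EED-cKO, against 0.4 and 0.5 RPKM in wt E15.5 forebrain, 0.5 and 0.3 RPKM in E13.5 forebrain, and 0.1 and 0.1 RPKM in spinal cord. Its relative Eps8 was at 10.4 and 10.5 RPKM in EED-cKO and 7.6 and 5.6 RPKM in wt E15.5, while Eps8l3 was listed at 0 throughout.

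Rnf39, a RING finger gene of the major histocompatibility region, was at 2.8 and 2.6 RPKM in EED-cKO, against 0.3 and 0.2 RPKM in wt E15.5 forebrain, 0.2 and 0.2 RPKM in E13.5 forebrain, and 0.4 and 0.4 RPKM in spinal cord. Nccrp1 encodes a protein related to the sugar-binding F-box proteins. It was at 2.4 and 2.7 RPKM in EED-cKO, against 0.4 and 0.2 RPKM in wt E15.5 forebrain and 0.1 RPKM in all 4 E13.5 libraries. Among its relatives, Fbxo2 was at 11.6 and 12.9 RPKM in EED-cKO and 5.5 and 7.0 RPKM in wt E15.5, and Fbxo44 at 62.5 and 58.5 RPKM in EED-cKO and 47.0 and 51.0 RPKM in wt. Ppm1n, a phosphatase gene of the PP2C family, was at 2.1 and 2.1 RPKM in EED-cKO, against 0.3 and 0.3 RPKM in wt E15.5 forebrain, 0.1 and 0.2 RPKM in E13.5 forebrain, and 0.1 and 0.1 RPKM in spinal cord. The family members Ppm1a and Ppm1b were abundant in both genotypes, with Ppm1a at 94.2 and 90.9 RPKM in EED-cKO and 99.0 and 104.2 RPKM in wt E15.5.

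No role is given here for Fam47e or BC089491. Fam47e was at 2.3 and 2.1 RPKM in EED-cKO, against 0.4 and 0.5 RPKM in wt E15.5 forebrain, 0.1 and 0.1 RPKM in E13.5 forebrain, and 0.1 and 0 RPKM in spinal cord, which gave the lowest fold of the group at 4.89. BC089491 was at 3.4 and 4.3 RPKM in EED-cKO, against 0.5 and 0.4 RPKM in wt E15.5 forebrain, 0.1 and 0.3 RPKM in E13.5 forebrain, and 0.5 and 0.5 RPKM in spinal cord.

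The wt values were low but rarely 0, and none of the 18 genes was listed at 0 in all 6 wt libraries. In 15 of the 18 the wt mean was higher at E15.5 than at E13.5 in forebrain. The median ratio of wt E15.5 to wt E13.5 forebrain over genes at 1 RPKM or more in all 4 libraries was 1.5, so this order of ages moves with a difference in scale between the deposited columns. Between the E13.5 tissues, 6 genes had a higher mean in spinal cord than in forebrain and 7 a lower one, with all values at or below 0.5 RPKM and in steps of 0.1.

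The number of genes depended on where the limits were set and on the scale. At the wt limit and outside the left-out families, 368 genes had at least 0.5 RPKM in both EED-cKO libraries, 101 at least 1 RPKM, 18 at least 2 RPKM, 5 at least 3 RPKM and 1, Spag6, at least 4 RPKM. A wt limit of 0.2 RPKM left Spag6, Npw and Tcf21. Highest wt values of 0.5 RPKM were found for 5 of the genes, and 4 genes with a highest wt value of 0.6 RPKM were missed. Among these, Insl3 was at 3.4 and 2.8 RPKM in EED-cKO and 0.6 and 0.5 RPKM in wt E15.5. At the other limit, Plekhg6, at 1.9 and 2.3 RPKM in EED-cKO and 0.3 and 0.3 RPKM in wt E15.5, lay just outside and Tcf21 just inside. After median ratio scaling of all libraries 4 genes met the same limits (Spag6, Ddo, Ifnlr1 and Tctex1d1), and after quantile normalization 2 (Spag6 and Ddo).

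At the same limits, 16 genes of the left-out name families were also switched on, and 11 of these were named developmental or cell cycle genes. Their EED-cKO means ran between 3.2 and 65.15 RPKM with a median of 5.45 RPKM, beside 2.05 to 4.5 RPKM and a median of 2.62 RPKM for the 18 genes. Genes at the wt limit numbered 17824 in all and 6397 outside the left-out families. The 16 genes thus came from a larger pool than the 18 and were a smaller share of it. Cdkn2a, which encodes cell cycle inhibitors of the Ink4a/Arf locus and is a classical Polycomb target, was at 63.9 and 66.4 RPKM in EED-cKO and 0.1 and 0.1 RPKM in wt E15.5 forebrain. Hoxb13 was at 37.3 and 34.4 RPKM in EED-cKO and at 0 RPKM in wt E15.5 forebrain. These values, too, were chosen by the limits and carry no test.

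Names had been matched to the 4 E15.5 columns by alphabetical order, so the block of rows around each of the 18 names was checked. Over the 51 rows around each gene, wt E15.5 forebrain was compared with wt E13.5 forebrain while the E15.5 rows were shifted by up to 5 rows either way. For all 18 genes the correlation was highest without a shift, at 0.814 to 0.979, and no shifted position exceeded 0.612. These are correlations across neighbouring rows, which are not independent replicates, and they could not show a single misplaced row within a block. For 9 of the genes the row was the same in the deposited and the restored order, and 9 had moved. Among the moved genes, Tcf21 changed by −0.97 in the deposited order, where its name stands beside other values.

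The 2 EED-cKO libraries gave similar levels for the group. The ratio of replicate 2 to replicate 1 ran between 0.68 (Tcf24) and 1.26 (BC089491), with 6 genes higher in replicate 2, 8 lower and 4 equal. The median size of the log2 difference between the libraries was 0.09, beside 0.13 for 2487 other tested genes with an EED-cKO mean of 2 to 5 RPKM. The requirement of 2 RPKM in both libraries limits how far they can differ. Among genes at the wt limit outside the left-out families, 32 reached 2 RPKM in EED-cKO replicate 2 only, and 1, Ankrd66, in replicate 1 only. Without EED-cKO replicate 1 the limits would have taken 50 genes, and without wt E15.5 replicate 1 they would have taken 26. Of the 32 genes, 24 were at or below 0.5 RPKM in replicate 1 and 10 were at or above 5 RPKM in replicate 2, which no gene of the group reached.

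**Figure D2:**
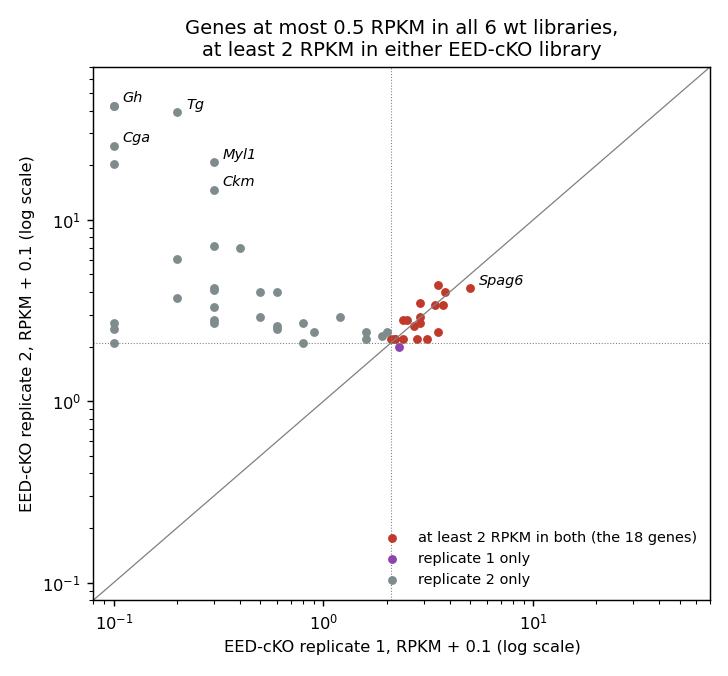
Each point is a gene at or below 0.5 RPKM in all 6 wt libraries, outside the left-out name families, that reached 2 RPKM in at least 1 EED-cKO library, with RPKM + 0.1 in EED-cKO replicate 1 on the horizontal and replicate 2 on the vertical log axis. The 18 genes lie near the line of equal values, while 32 genes, Gh and Tg among them, lie above it with replicate 2 alone past 2 RPKM.

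Silence at E15.5 alone gave a larger set. Values of at most 0.5 RPKM in both wt E15.5 libraries, with at least 2 RPKM in both EED-cKO libraries, were found for 43 genes outside the left-out families, while only 3 met the mirrored limits, low in EED-cKO and on in wt. The 18 genes are those of the 43 that were also at the limit in all E13.5 libraries. The other 25 exceeded 0.5 RPKM at E13.5, 6 in spinal cord only, 12 in forebrain only and 7 in both. Their EED-cKO means had a median of 2.65 RPKM, close to the 2.62 RPKM of the 18, but reached 19.9 RPKM in Olig3. Hmx1, a homeobox gene, had an EED-cKO mean of 16.5 RPKM and a highest E13.5 value of 19.5 RPKM. Epithelial genes among the 25 included Cldn6, Cldn7, Krt7, Dsp, Esrp1 and St14, with EED-cKO means between 2.4 RPKM (Esrp1) and 6.05 RPKM (Cldn7).

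**Figure D3:**
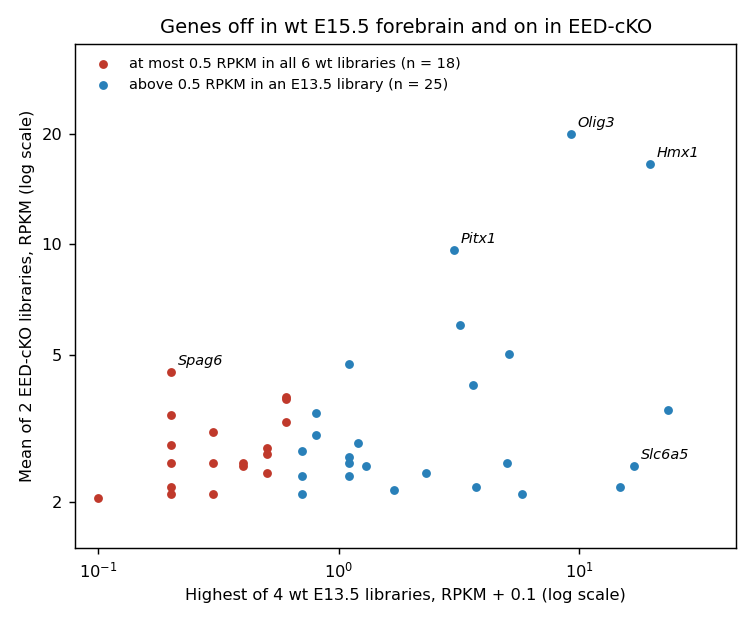
The 43 genes with at least 2 RPKM in both EED-cKO libraries and at most 0.5 RPKM in each wt E15.5 library, with the mean of the EED-cKO libraries on the vertical log axis and the highest of the 4 wt E13.5 values plus 0.1 on the horizontal log axis. The 18 genes in red stay below 5 RPKM, while some of the 25 genes in blue, used in wt tissue at E13.5, reach up to 19.9 RPKM in Olig3.

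Marker lists of several other tissues and cell types were higher in the EED-cKO libraries as well, and some were not. Of 29 markers of epidermis and other epithelium, 17 were tested. Of these 17, 15 rose and none fell in limma (88.2% higher), beside 30.2% higher and 16.7% lower over all tested genes. Those shares over all tested genes are also the background for the lists below. Krt7, Dsp and Grhl3 passed the filter for tested genes only through their EED-cKO values. The whole epithelial list summed to 110 and 144 RPKM in EED-cKO and 44.1 and 44.4 RPKM in wt E15.5 forebrain. Epcam rose by 2.68 ± 0.381 (SE, limma adjusted p = 0.00149), Cldn7 by 2.66 ± 0.202 (0.000144) and Cldn6 by 2.21 ± 0.282 (0.00097). In the deposited row order Cldn7 changed by 0.07 and Cldn6 by 0.14, without a call. Epcam was at 7.9 RPKM in EED-cKO replicate 1 and 21.3 RPKM in replicate 2, and Cldn6 at 3.2 RPKM and 6.9 RPKM, so replicate 2 had the higher value of both. Among epidermal markers, Lor was at 16.6 and 18.1 RPKM in EED-cKO and 10.7 and 9.1 RPKM in wt E15.5, and Krt1 at 6.1 and 7.6 RPKM in EED-cKO and 6.0 and 6.4 RPKM in wt. Dsg3 and Ivl were at 0 in both EED-cKO libraries, and Krt5, Krt14 and Trp63 did not exceed 0.6 RPKM there. All 10 markers of meninges and mesenchyme rose, with sums of 783 and 952 RPKM in EED-cKO and 269 and 204 RPKM in wt E15.5. All 9 choroid plexus markers rose, with sums of 5877 and 4601 RPKM in EED-cKO and 2150 and 2305 RPKM in wt E15.5. All 9 endothelial markers and 7 of 9 microglial markers rose, with none lower. Of the lists for tissues outside the brain, liver and gut had 6 of 6 tested markers higher, and cartilage and bone 8 of 10. Kidney and urogenital had 4 of 5 higher, germline 3 of 4, skeletal muscle 5 of 12 and heart 2 of 4, all with none lower. Neural crest markers split into 3 higher and 3 lower of 7, erythroid markers into 1 and 1 of 10, and adrenal and gonad markers into 1 and 1 of 5. Of 5 retina and eye markers, 3 rose and 1 fell, with sums of 44.1 and 46.1 RPKM in EED-cKO and 64.1 and 76.0 RPKM in wt E15.5. Of 14 forebrain markers, 11 fell and none rose, with sums of 1858 and 1734 RPKM in EED-cKO and 3495 and 3782 RPKM in wt E15.5. Outside the epithelial list, too, some markers called higher passed the filter only through their EED-cKO values. They were Kl of choroid plexus, Apoa1, Tff3 and Cdh17 of liver and gut, and Runx2 and Sp7 of cartilage and bone. The same held for Lrp2 (kidney), Sycp3 (germline), Actn3 (skeletal muscle), Mitf (neural crest), Cyp11a1 (adrenal and gonad) and Nrl (retina and eye). The filter favoured a higher call for all of these. The choroid plexus carries cilia, mesenchyme is a site of Tcf21, and epithelium is a site of Ifnlr1. The part of these tissues in the levels of the 18 genes was not tested.

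The skeletal muscle list differed between the EED-cKO libraries, with a summed level of 32.1 RPKM in replicate 1 and 262 RPKM in replicate 2, against 23.5 and 27.9 RPKM in wt E15.5 forebrain. The part of this difference in the levels of the 18 genes was not tested, because the limits had removed genes that only 1 EED-cKO library carried.

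Genomic positions were found in GENCODE M21 (GRCm38) for 17 of the 18 genes, all protein-coding. They lay on 9 chromosomes, with 3 genes on chromosome 2 and 3 on chromosome 7. Spag6 is on chromosome 2 (18694032 to 18750413), Tcf21 on chromosome 10 (22817281 to 22820174), Npw on chromosome 17 (24657330 to 24658457) and Rspo4 on chromosome 2 (151842927 to 151874668). No 2 of these 17 genes lay within 1 Mb of each other, and BC089491 had no position.

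The nearest tested gene on each side was not itself chosen by the limits, but it had to pass the filter for tested genes. Of 34 such neighbours of 17 genes, 11 were called higher (32.4%) and 10 lower (29.4%) in EED-cKO forebrain, beside 30.2% higher and 16.7% lower over all tested genes, with a median log2 change of −0.01. Grhl3, Fbxl8 and Mustn1, all called higher, passed that filter only through their EED-cKO values, so the filter favoured a higher call for them. With a filter of 2 RPKM in at least 2 libraries, 8 neighbours were higher and 10 lower. Lower neighbours numbered 3 without EED-cKO replicate 1, 5 without replicate 2, 5 in the deposited row order and 2 with only the 4 E15.5 libraries. Both neighbours of Spag6, Tctex1d1 and Hsf4 rose, although the call of Fbxl8 beside Hsf4 was lost after quantile normalization (log2 change 0.2). Bmi1, a PRC1 subunit gene 7.38 kb from Spag6, was at 80.9 and 73.8 RPKM in EED-cKO and 50.4 and 49.0 RPKM in wt E15.5 (log2 change 0.63 ± 0.0709, limma adjusted p = 0.000612). Wdr78, an axonemal gene beside Tctex1d1, rose by 0.75 ± 0.0929 (0.000875). Nol3, 0.3 kb from Hsf4, rose by 0.98 ± 0.156 (limma adjusted p = 0.00237), and this call was lost with hyphens kept in the sorting of names (log2 change 0.13). Eya4, 283 kb from Tcf21, rose by 1.0 ± 0.092 (limma adjusted p = 0.000282).

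Other genes kept wt levels or fell beside a gene of the group. Deaf1, 0.042 kb from Eps8l2, was at 96.2 and 93.4 RPKM in EED-cKO and 90.0 and 98.1 RPKM in wt E15.5 (log2 change 0.01 ± 0.0709). Cdk19, 146 kb from Ddo, fell to 11.4 and 12.5 RPKM in EED-cKO, against 29.1 and 26.2 RPKM in wt E15.5 (log2 change −1.15 ± 0.0769, limma adjusted p = 9.21e-05). Both tested neighbours of Rspo4, Psmf1 and Fam110a, were called lower, by 0.21 and 0.30 on the log2 scale. Reads were unstranded, so an overlapping transcript on the other strand cannot be separated. The annotated genes overlapping the group were all long noncoding RNAs, and none of them exceeded 1.1 RPKM in EED-cKO.

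**Figure D4:**
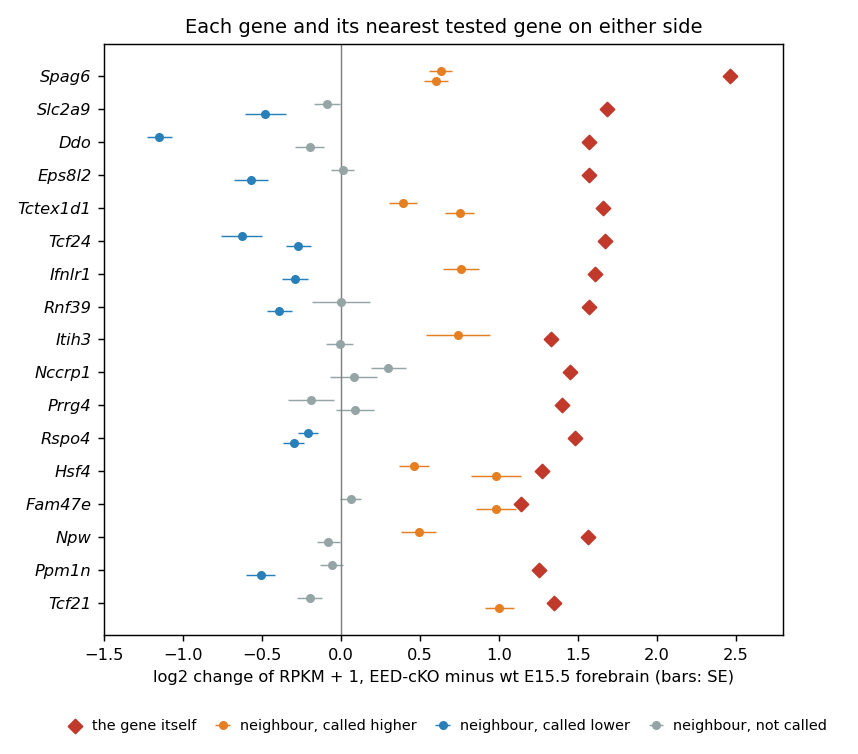
Log2 change of RPKM + 1 in EED-cKO minus wt E15.5 forebrain for 17 of the 18 genes (red diamonds) and for the nearest tested gene on either side (points with SE bars, coloured by the limma call). The neighbours lie on both sides of 0, with 11 higher, 10 lower and 13 not called.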

How the data were processed

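RNA of dissected forebrain and spinal cord was sequenced as unstranded single-end reads on a HiSeq2500, per the labels' protocols. The authors deposited 1 table of RPKM values, rounded to 0.1, for 8 libraries and 36333 rows. The builds mm9 and GRCm38 are named in the submitters' processing notes without a role, and the aligner and counter are not given in the sources used here.

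For the 4 E15.5 columns, rows were matched to symbols sorted alphabetically, ignoring case and hyphens. This restored order raised the correlation of wt E13.5 with wt E15.5 forebrain from 0.76 to 0.948 (0.897 with hyphens kept), and 23016 names moved. The higher-mean row was kept for 16 duplicated symbols. Genes reaching 1 RPKM in 2 or more libraries (17022) were fitted on log2(RPKM + 1) with 4 group means by limma 3.58.1 under R 4.3.3 (trended eBayes, two-sided). A call was a Benjamini-Hochberg adjusted p below 0.05, adjusted over the 17022 genes. With 2 libraries against 2, the smallest exact permutation p is 0.333. The fit was tested on simulated data. Neighbours came from RefSeq (GRCm38.p6).

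The 18 genes and the lists were chosen with earlier results of these data known. Named genes were Eed, Ezh2 and Suz12 as a check of the knockout, and the 18 genes by level and role. To these were added the 3 genes inside and outside each limit, up to 3 called genes per list and some neighbours of the 18 genes. Relatives of the 18 genes, and genes silent at E15.5 only or on in 1 EED-cKO library, were chosen after their values were seen. Replicate numbers were not taken to pair the EED-cKO and wt E15.5 samples. Alternatives covered the pseudocount, filter, scaling, row order, limits and each library left out. Python 3.11.15 with pandas 2.3.3, numpy 2.4.6 and matplotlib 3.10.9 served for tables and figures.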

Additional observations from a re-analysis of the deposited data

How the results depend on the processing

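The count of called genes, 7987 in the fit used, was 4929 when genes whose row differed between the orders were left out and 4777 with only the 4 E15.5 libraries. With 1 library left out it ran between 4922 (without EED-cKO replicate 2) and 9606 (without wt E15.5 replicate 1). Higher calls were 64.5% of all calls, 46.0% after quantile normalization and 56.9% after median ratio scaling. Quantile normalization moved the median log2 change over all genes to −0.04, against 0.08 without it. The number of genes meeting the limits, 18 as reported, was 2 after quantile normalization, 4 after median ratio scaling, 9 among genes whose row did not move, 3 at a wt limit of 0.2 RPKM, 85 at 1 RPKM, 101 at an EED-cKO minimum of 1 RPKM, 1 at 4 RPKM, 34 with no name family left out and 43 with the wt limit at E15.5 only. It was 7, of which 5 were shared, with E15.5 values divided by the median age ratio, and 12 with a wt limit of 0.3 RPKM at E13.5, both chosen after seeing the data. Of 14 genes in the deposited order 9 were shared, and of 18 with hyphens kept 16 were. With 1 library left out the number ran between 18 and 50. Reversed values were the log2 changes of Neurod2 (0.53 in the deposited order and with hyphens kept) and Tcf21 (−0.97 in the deposited order), while Nts lost its change (0.0 in both orders). In the deposited order the name Tcf21 stands beside 10.7 and 11.9 RPKM in EED-cKO and 27.1 and 19.6 RPKM in wt E15.5 forebrain. In the restored order these are the values of Tcf4, with its log2 change of −0.97. For Neurod2 and Nts the cause was not tested. Outside the deposited order, none of 332 recomputed log2 changes of the 18 genes reversed. Of 428 for other named genes, 409 kept their direction and side of the threshold and 17 lost their call. RPKM in steps of 0.1 limit how finely values of 0 to 0.5 can be ordered.

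Deviations from the group means correlated between same-numbered samples with r = −0.12 for EED-cKO and wt E15.5 forebrain and r = 0.21 for the 2 E13.5 tissues, and between −0.01 and 0.05 for the other pairs of groups. A replicate block gave 7608 called genes, and 8013 with the EED-cKO numbers crossed.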

Other observations

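Genes of the pituitary, thyroid and parathyroid glands were present in EED-cKO replicate 2 and nearly absent from replicate 1. They belong to the 32 genes that reached 2 RPKM in replicate 2 only, and were picked out after their values were seen. Gh, which encodes growth hormone, was at 42.4 RPKM in EED-cKO replicate 2 and at 0 RPKM in replicate 1 and in both wt E15.5 libraries. The hormone subunit genes Cga and Tshb were at 25.6 and 20.3 RPKM in replicate 2 and at 0 RPKM in replicate 1, and the prolactin gene Prl was at 2.6 RPKM in replicate 2 and 0 RPKM in replicate 1. Pomc, another pituitary hormone precursor gene, had 103.6 RPKM in EED-cKO replicate 2 and 9.0 RPKM in replicate 1, against 5.6 and 7.4 RPKM in wt E15.5 forebrain.

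The thyroid genes Tg and Iyd were at 39.0 and 4.1 RPKM in EED-cKO replicate 2 and did not exceed 0.2 RPKM in replicate 1, while Pth, parathyroid hormone, was at 42.4 RPKM in replicate 2 and 0 RPKM in replicate 1. The striated muscle genes Myl1 and Ckm were at 20.7 and 14.6 RPKM in replicate 2 and at 0.2 RPKM each in replicate 1. In all, 7 of the 32 genes stood in the skeletal muscle or heart marker lists. With 1 library on each side, these differences have no replicate check.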
